A study of Mus musculus with 6 samples.

Results

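Platelet-derived growth factor (PDGF) genes were followed across the cells of the brain vessel wall in 3 WT and 3 *ArcSwe* mice. The genes were 8, matched by symbol among the 32287 genes of the count tables: the ligands *Pdgfa*, *Pdgfb* and *Pdgfd*, the receptors *Pdgfra* and *Pdgfrb*, and *Cspg4*, *Rgs5* and *Mcam*, which are known from mural cells. All 8 were detected. WT mice were C57BL/6J, and *ArcSwe* mice (tg App ArcSwe) carry a human *APP* transgene with the Swedish and Arctic mutations. The sources used here do not state the promoter that drives it. All mice were untreated 12-month-old males, and vessel fragments from one cerebral hemisphere per mouse were captured with beads against CD31 before 10x Genomics single-cell sequencing, 1 library per mouse. The comparison asks whether the expression of PDGF signalling genes in vascular cells differs in a mouse with amyloid in brain and vessel walls.

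Endothelial cells release PDGF-B, a dimeric growth factor that the matrix retains near the vessel. Pericytes and smooth muscle cells, the mural cells that wrap the endothelium, carry its receptor PDGFRβ and are recruited and held at the vessel through it. PDGF-D is secreted in a latent form and, once cleaved, binds the same receptor, whereas PDGF-A acts through PDGFRα, the receptor of fibroblasts and oligodendrocyte precursors.

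The upstream windows of 3 genes that represent the mural cells, the ligands and the receptors are shown for orientation, as 250 bases before the RefSeq start on GRCm38.p6, 5′ to 3′ on the gene's strand. Capitals mark TGGGAA or its reverse complement TTCCCA, the core letters bound by RBPJ, the nuclear partner of Notch receptors. The windows lie at chr1:169655251-169655500 (plus strand) for *Rgs5*, chr9:6168236-6168485 (plus) for *Pdgfd* and chr5:75152001-75152250 (plus) for *Pdgfra*.
Rgs5: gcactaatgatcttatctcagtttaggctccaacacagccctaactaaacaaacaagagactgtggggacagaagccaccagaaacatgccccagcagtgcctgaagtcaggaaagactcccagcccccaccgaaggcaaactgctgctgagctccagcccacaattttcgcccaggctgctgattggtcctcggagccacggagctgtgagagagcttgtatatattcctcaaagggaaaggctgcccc
Pdgfd: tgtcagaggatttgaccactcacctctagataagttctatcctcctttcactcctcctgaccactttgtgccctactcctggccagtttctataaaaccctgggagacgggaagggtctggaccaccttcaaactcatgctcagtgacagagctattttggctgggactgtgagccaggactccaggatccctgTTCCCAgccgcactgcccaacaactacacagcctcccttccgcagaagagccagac
Pdgfra: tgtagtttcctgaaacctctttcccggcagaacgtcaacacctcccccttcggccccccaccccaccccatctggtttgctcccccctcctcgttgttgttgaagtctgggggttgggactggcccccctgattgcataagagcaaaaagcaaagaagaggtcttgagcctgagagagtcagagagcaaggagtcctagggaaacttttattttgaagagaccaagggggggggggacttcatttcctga
*Pdgfd* had 1 match, 56 bases before its start, and *Rgs5* and *Pdgfra* had none. Both strands were searched, and 21.6% of 32851 windows of the same length held such a match. The CArG box, the element of smooth muscle genes, was found in none of the 3 windows and in 1.47% of all windows. RefSeq windows were matched for 6 of the 8 genes.

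Positions are on GRCm38. *Pdgfa* (ENSMUSG00000025856) spans 138976014 to 138997370 on chromosome 5, *Pdgfb* (ENSMUSG00000000489) 79995874 to 80014977 on chromosome 15 and *Pdgfd* (ENSMUSG00000032006) 6168584 to 6378850 on chromosome 9. *Pdgfra* (ENSMUSG00000029231) spans 75152292 to 75198215 on chromosome 5, *Cspg4* (ENSMUSG00000032911) 56865033 to 56899870 and *Mcam* (ENSMUSG00000032135) 44134469 to 44142727 on chromosome 9, and *Rgs5* (ENSMUSG00000026678) 169655501 to 169695813 on chromosome 1. *Pdgfrb* is ENSMUSG00000024620. Genes on the opposite strand overlap *Pdgfa* (*6330403L08Rik*), *Pdgfb* (*Gm41361*), *Pdgfd* (*Ddi1*), *Pdgfra* (*Gm42802* and *Gm42803*) and *Mcam* (*Gm10687*), and whether the counting used strand is not given in the sources used here.

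The libraries held 49059 cells, of which 44112 passed the filter, and 26436229 to 59161203 UMIs (unique molecular identifiers, each 1 captured transcript) per mouse. Cells were clustered without the 8 genes and named from marker genes, so that "pericytes" and the other names stand for pericyte-like cells and so on. Per mouse there were 357 to 1537 arterial, 1127 to 4190 capillary, 109 to 472 venous and 61 to 172 fenestrated endothelial cells, 35 to 205 pericytes, 188 to 1029 smooth muscle cells, 221 to 2061 microglia and at most 8 fibroblasts. The median cell held 2922 to 5542 UMIs, with *ArcSwe* replicate 3 the lowest in every vascular class. Libraries shared 4 to 42 cell barcodes pairwise. Clusters with endothelial together with smooth muscle markers (538 cells) or pericyte markers (183 cells) belonged to no class. *App* did not check the genotype, since the transgene is human and its log2 difference ran from -0.023 to 0.28 over the classes. Levels below are UMIs per 1000000 UMIs of a class in a mouse (CPM) and are compared for 1 gene between classes, as a description, because the classes come from the same cells.

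*Pdgfb* was an endothelial transcript in these vessels, at 425, 380 and 388 CPM in the arterial cells of the 3 WT mice and 429, 463 and 369 CPM in those of the 3 *ArcSwe* mice. In capillary cells it stood at 379, 348 and 354 CPM in WT and 360, 408 and 300.1 CPM in *ArcSwe* mice. Venous cells held 242, 205 and 212 CPM in WT and 245, 238 and 205 CPM in *ArcSwe* mice. The genotypes overlapped in all 3 zones, while the venous level lay below the capillary one in each of the 6 mice. Arterial and fenestrated cells, with means of 409 ± 35.8 and 408 ± 39.5 CPM (SD, n = 6), could not be ordered. Mural cells were low, with a mean of 33.0 ± 5.4 CPM in smooth muscle cells and 19.6 ± 15.2 CPM in pericytes.

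Microglia held *Pdgfb* at the capillary level, 325, 405 and 240.2 CPM in WT and 329, 492 and 328 CPM in *ArcSwe* mice. The genotypes overlapped, and the microglial level exceeded the capillary one in 3 of 6 mice. Of the endothelial level, microglia had 96.2% for *Pdgfb* but 2.08 to 4.53% for the 6 endothelial markers and 1.7% for *Pdgfd*. Shares of cells with a UMI were taken with each cell thinned to 1000 UMIs, which left out shallower cells (471 of 3268 WT and 1073 of 3319 *ArcSwe* microglia, 204 of 7674 and 178 of 8711 capillary cells, 11 of 180 and 27 of 295 pericytes, and 28 of 1604 and 14 of 1756 smooth muscle cells). At that depth 26.5% ± 3.79 of microglia and 29.3% ± 1.7 of capillary cells held a *Pdgfb* UMI, against 2.25% ± 1.54 of pericytes (SD, n = 6 mice). Without thinning the shares were 44.8%, 69.2% and 5.52%, at median depths of 1083 to 5874, 2685 to 5279 and 2087 to 4718 UMIs per cell.

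*Pdgfd* was highest in arterial cells, with 539, 566 and 882 CPM in WT and 645, 639 and 751 CPM in *ArcSwe* mice. Capillary cells held 331, 383 and 517 CPM in WT and 357, 396 and 436 CPM in *ArcSwe* mice, and venous cells 233, 255 and 360 CPM against 236, 263 and 333 CPM. WT replicate 3 was the highest mouse in every one of these zones, and the genotypes overlapped. The arterial level was above the capillary one in 6 of 6 mice, by 1.66-fold on average. Smooth muscle cells held a mean of 155 ± 38.0 CPM, or 34.3% of the endothelial level, where the endothelial markers reached 1.44 to 1.95%. In pericytes the ligand was sparse, at 111, 32.0 and 33.5 CPM in WT and 158, 94.3 and 58.8 CPM in *ArcSwe* mice.

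*Pdgfa* followed another order, with the smooth muscle cells first. They held 364, 348 and 258 CPM in WT and 328, 382 and 360 CPM in *ArcSwe* mice. Pericytes held 199, 264 and 87.8 CPM in WT and 196, 216 and 133 CPM in *ArcSwe* mice. The smooth muscle level was the higher in all 6 mice, and the genotypes overlapped in both mural classes. Arterial cells held 155, 169 and 130.4 CPM in WT and 167, 163 and 177 CPM in *ArcSwe* mice, below pericytes in 4 of 6. Capillary cells had the lowest vascular mean, 35.3 ± 5.84 CPM, and venous cells lay between, at 78.0 ± 14.3 CPM (SD, n = 6).

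Counted as transcripts rather than levels, the 3 ligands together lay mostly in endothelium among the captured cells. Of the 44112 kept cells, 19837 were named capillary, 6984 arterial and 2311 venous after capture with CD31 beads. The shares below depend on that make-up and are not shares in brain tissue. Endothelial cells held 67.8% ± 8.16 of all ligand UMIs of a mouse (SD, n = 6), capillary cells alone 37.5% and arterial cells 24.1%, while smooth muscle cells held 6.13%, microglia 4.91% and pericytes 0.253%. The share was lowest in *ArcSwe* replicate 3, at 53.9%, the mouse with 27.7% of its endothelial cells left out for a microglial transcript. With those cells kept the mean share was 81.9%. Per ligand, smooth muscle cells held 32.0% of *Pdgfa* UMIs, and capillary cells 41.5% of those of *Pdgfb*.

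**Figure D1:**
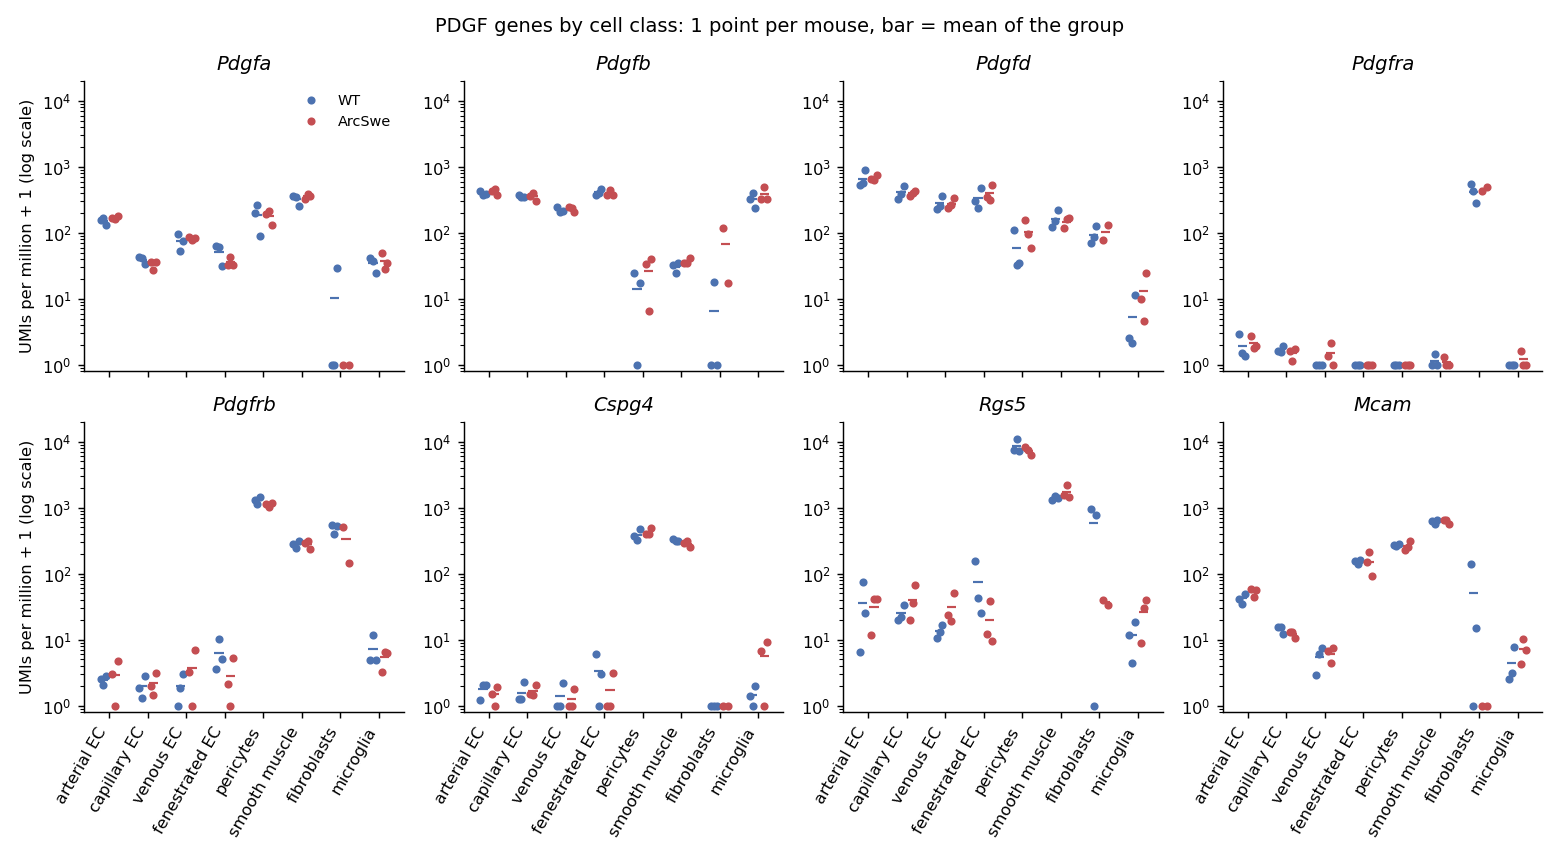
Level of each gene (y axis, CPM plus 1, log scale) in 8 cell classes (x axis), with 1 point per mouse, 3 WT in blue and 3 *ArcSwe* in red, and a bar at the group mean. By mean, *Pdgfb* and *Pdgfd* peak in endothelial cells, *Pdgfrb* and *Rgs5* in pericytes and *Pdgfra* in fibroblasts. Microglia hold *Pdgfb* at the capillary level. The mice of the 2 genotypes lie together in most classes.

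*Pdgfrb*, the receptor that binds PDGF-B and PDGF-D, was highest in pericytes. It stood at 1312, 1145 and 1447 CPM in WT and 1141, 1026 and 1177 CPM in *ArcSwe* mice. Smooth muscle cells held 284, 241 and 316 CPM in WT and 285, 309 and 234 CPM in *ArcSwe* mice. The 2 lowest pericyte values were from *ArcSwe* mice, but the genotypes overlapped in both classes, and the pericyte level was 4.34-fold that of smooth muscle cells on average. Endothelial means were 1.08 to 3.53 CPM. At 1000 UMIs per cell, 73.3% ± 4.5 of pericytes and 22.8% ± 1.67 of smooth muscle cells held a UMI, against 0.105% ± 0.121 of capillary cells (SD, n = 6 mice). Because smooth muscle cells outnumbered pericytes, they held 59.6% of all *Pdgfrb* UMIs and pericytes 19.6%.

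*Pdgfra*, the receptor for PDGF-A, was not detected in pericytes. A UMI was seen in 0 of 475 pericytes, which allows a share of up to 0.632% of cells with a UMI, for counting error only, and smooth muscle cells held 2 UMIs in 3360 cells. Fibroblasts held 546, 426 and 279.5 CPM in WT mice and 430.3 and 503 CPM in *ArcSwe* replicates 1 and 3, from 27 cells and 95 UMIs in all. *ArcSwe* replicate 2 had no fibroblast, and with at most 8 cells a mouse the class was not tested. In the same 27 cells *Pdgfrb* was also present, at 146 to 546 CPM.

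*Cspg4* encodes NG2, a proteoglycan of the mural cell surface that binds PDGF-A. Pericytes held 363, 320.3 and 464 CPM in WT and 397, 394 and 488 CPM in *ArcSwe* mice. Smooth muscle cells held 328, 308 and 307 CPM in WT and 289.5, 311 and 251 CPM in *ArcSwe* mice. The pericyte level was the higher in 6 of 6 mice although the ranges of the classes overlapped, and the genotypes overlapped in both. Endothelial means lay between 0.339 and 1.55 CPM.

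*Rgs5*, a regulator that speeds the shut-off of G protein signalling, was highest in pericytes. Its level there was 7318, 10860 and 7188 CPM in WT and 8300, 7340 and 6159 CPM in *ArcSwe* mice. In smooth muscle cells it was 1282, 1484 and 1406 CPM in WT and 1525, 2197 and 1421 CPM in *ArcSwe* mice. *ArcSwe* replicate 2 was the highest in smooth muscle, where the 7 pericyte markers also summed to 1760 CPM in that mouse (9.62% of the pericyte level) and 1150 to 1370 CPM in the others, and the part of these transcripts in the *Rgs5* values was not tested. The genotypes overlapped in both, and pericytes were 5.06-fold higher on average. At 1000 UMIs per cell, 97.5% ± 1.82 of pericytes and 47.2% ± 5.11 of smooth muscle cells held a UMI, against 1.69% ± 0.707 of capillary cells.

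*Mcam* encodes CD146, an adhesion molecule reported as a co-receptor of PDGFRβ. It was highest in smooth muscle cells, with 624, 562 and 652 CPM in WT and 639, 642 and 557 CPM in *ArcSwe* mice. Pericytes held 269.5, 256 and 284 CPM in WT and 228, 255 and 312 CPM in *ArcSwe* mice. Smooth muscle was above pericytes in all 6 mice, and the genotypes overlapped. The gene was not confined to mural cells, since fenestrated endothelial cells held 150.0 ± 37.8 CPM and arterial cells 46.6 ± 9.13 CPM (SD, n = 6). Arterial *Mcam* was 17.4% of the pericyte level, where the 7 pericyte markers were at 0.0139 to 0.311%.

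**Figure D2:**
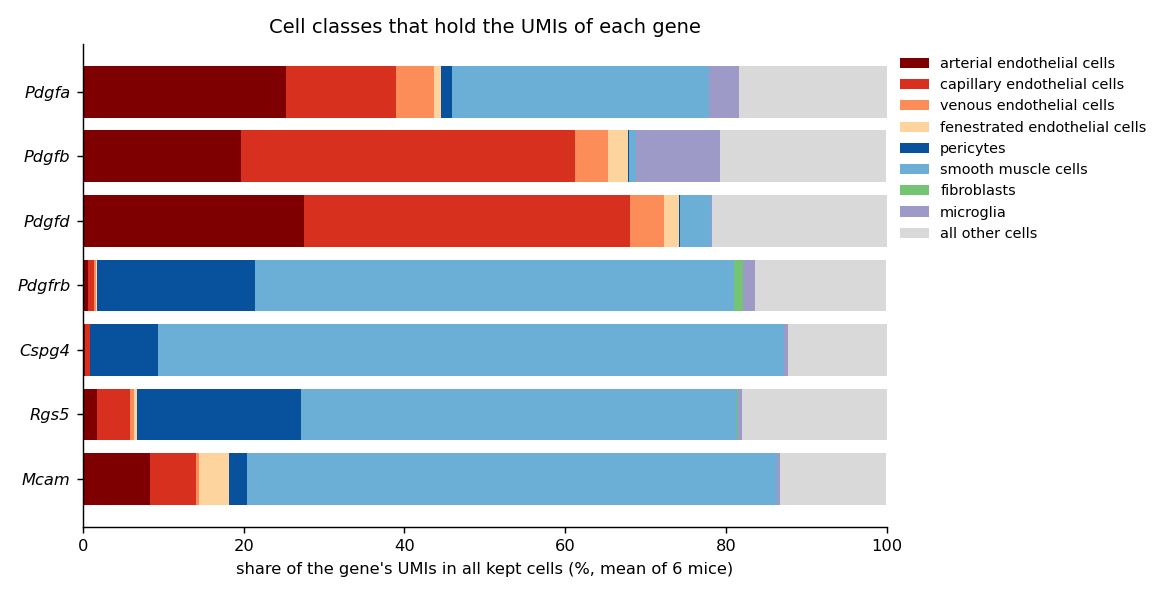
Share of each gene's UMIs in all kept cells (x axis, %, mean of 6 mice) that lay in each class, for the 7 genes other than *Pdgfra* (y axis). Endothelial classes hold most of *Pdgfb* and *Pdgfd*, and smooth muscle cells most of *Pdgfrb* (59.6%), *Cspg4* (77.9%), *Rgs5* (54.2%) and *Mcam* (65.9%).

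None of the genes that could be tested was called different between *ArcSwe* and WT mice. Fenestrated cells and fibroblasts were not tested, and 5 to 7 of the 8 genes passed the filter on low counts in a class. *Pdgfra* passed it only in all endothelial cells together, *Cspg4* only in pericytes and smooth muscle cells, *Pdgfb* in every class tested but pericytes, and *Pdgfrb* in every one but arterial and venous cells. UMIs were summed per mouse and class and tested with edgeR's quasi-likelihood test and Benjamini-Hochberg adjustment, and a gene was called at an adjusted p under 0.05. Over all genes the same test called 0% in endothelial cells together and in the arterial, capillary and venous zones, 0% in pericytes, 0% in smooth muscle cells and 0.147% in microglia. At an unadjusted p under 0.05, 1 of the 5 genes tested passed in arterial cells (*Mcam*, where 4.84% of all genes passed), 1 of 5 in venous cells (*Rgs5*, 3.8%) and 1 of 6 in microglia (*Pdgfd*, 10.3%). None passed in all endothelial cells together (4.43% of all genes), capillary cells (4.24%), pericytes (3.17%) or smooth muscle cells (3.45%). DESeq2 called 0 of the tested genes among the 8 in any class, and called 19 of all genes in arterial and 7 in capillary cells. The CPM values of the genotypes did not overlap for 1 of the tested genes in venous cells (*Rgs5*, 9.47% of all genes in either direction and 3.59% with *ArcSwe* higher). They overlapped for every tested gene in all endothelial cells together (no overlap for 10.8% of all genes), arterial cells (11.1%), capillary cells (10.5%), pericytes (9.22%), smooth muscle cells (9.69%) and microglia (20.1%).

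No ligand was called between the genotypes in an endothelial zone. *Pdgfb* had a log2 fold change (*ArcSwe* over WT) of 0.12 in arterial cells (95% interval -0.14 to 0.38), 0.01 in capillary cells (-0.29 to 0.31) and 0.09 in venous cells (-0.21 to 0.39). *Pdgfd* had 0.08 (-0.31 to 0.46), -0.02 (-0.38 to 0.34) and 0.00 (-0.38 to 0.38) in the same order. *Pdgfa* had 0.20 (-0.08 to 0.47), -0.23 (-0.59 to 0.12) and 0.17 (-0.21 to 0.55). Every interval included 0. In microglia *Pdgfb* had 0.32 (-0.32 to 0.95). *Pdgfd* in microglia had 2.05 (0.18 to 3.93, adjusted p = 0.448 in edgeR), from 1.2 to 10.6 CPM in WT and 3.7 to 23.4 CPM in *ArcSwe* mice. These levels rest on 2 to 84 UMIs a mouse. They were 1.7% of the endothelial level, where the 6 endothelial markers stood at 2.08 to 4.53% in microglia. The median microglial cell held 5874 and 5141 UMIs in WT replicates 1 and 2 and 1083 to 1996 UMIs in the other mice, and most microglia lay in different clusters, 1 that held 710 and 556 cells of WT replicates 1 and 2, another with 1255 cells of WT replicate 3, and another with 701, 195 and 1563 cells of the *ArcSwe* mice. The part of depth, cluster and endothelial transcripts in the microglial values was not tested. Without WT replicate 3 the value for *Pdgfd* was 3.44 and was called (adjusted p = 0.0221 in edgeR). In that setting 7.37% of all genes were called in microglia, against 0.147% with all mice. Without *ArcSwe* replicate 3 the value for *Pdgfd* was 1.07 (adjusted p = 0.986 in edgeR). In pericytes *Pdgfd* had 0.76 (-0.34 to 1.86) and *Pdgfa* 0.04 (-0.76 to 0.84), and in smooth muscle cells *Pdgfa* had 0.16 (-0.20 to 0.52).

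The receptor and the other mural genes were likewise not called, and intervals were wider in pericytes, whose sums rest on 35 to 205 cells. *Pdgfrb* had a log2 fold change of -0.19 in pericytes (-0.68 to 0.30) and 0.00 in smooth muscle cells (-0.31 to 0.31). *Cspg4* had 0.18 (-0.33 to 0.70) and -0.13 (-0.40 to 0.15), and *Rgs5* -0.19 (-0.81 to 0.42) and 0.32 (-0.08 to 0.73). Without *ArcSwe* replicate 2 the smooth muscle value of *Rgs5* was 0.11 (-0.28 to 0.50). *Mcam* had 0.01 (-0.47 to 0.49) and 0.03 (-0.25 to 0.30). In pericytes the summed level of the 6 endothelial markers was 1100 CPM in *ArcSwe* replicate 3 and 179 to 451 CPM in the other mice, and its part in these values was not tested. Between smooth muscle cells and pericytes, 0 of the 7 genes tested passed an unadjusted p under 0.05 for a difference of the genotype effect (3.71% of all genes, 0% called). The smooth muscle to pericyte ratio of *Pdgfrb* was 0.211 to 0.218 in WT and 0.199 to 0.302 in *ArcSwe* mice, and that of *Rgs5* 0.137 to 0.196 and 0.184 to 0.299. Both overlapped, and 9.93% of all genes had ratios that did not.

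**Figure D3:**
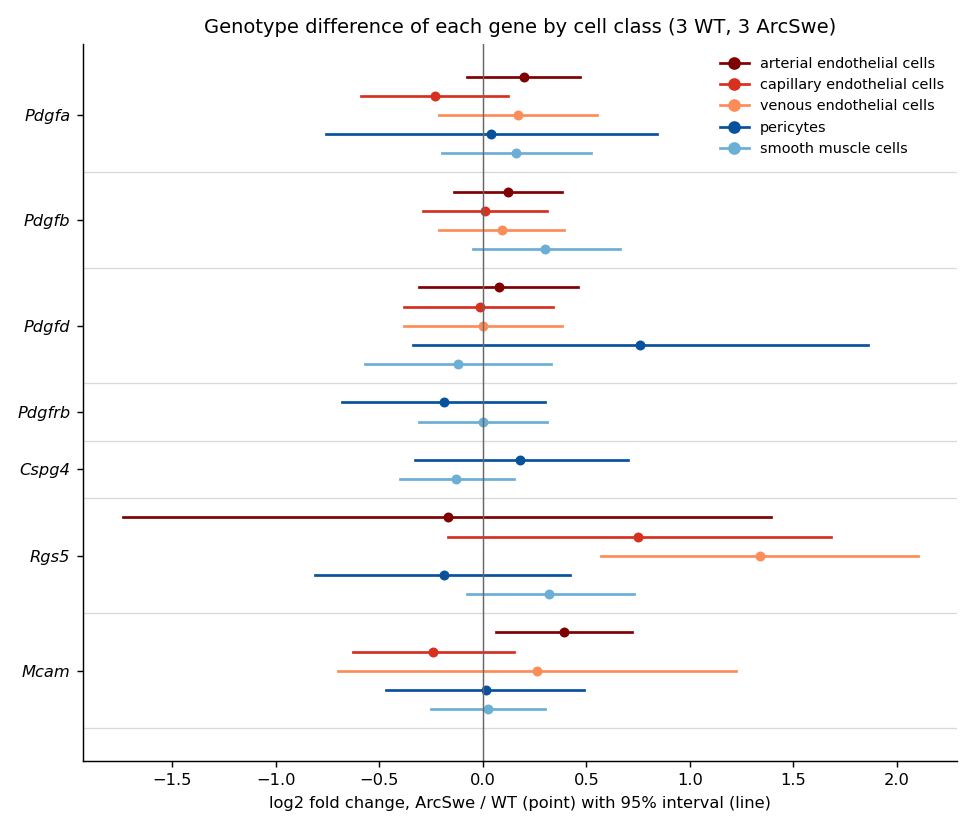
Log2 fold change of each gene between 3 *ArcSwe* and 3 WT mice (x axis), with its 95% interval as a line, by gene (y axis) and cell class (colour). The intervals of *Mcam* in arterial cells and *Rgs5* in venous cells lie above 0, and the others shown include 0.

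*Pdgfa* and *Mcam* had the smallest p-values for a genotype difference that itself differs between arterial and capillary cells, and neither passed adjustment. The arterial to capillary ratio of *Pdgfa* was 3.61, 4.18 and 4.03 in WT and 4.77, 6.15 and 5.09 in *ArcSwe* mice. All 3 *ArcSwe* mice lay above all 3 WT mice, which 11.3% of all genes also showed in one direction or the other. The interaction was 0.42 on the log2 scale (SE 0.091, interval 0.23 to 0.61), with an adjusted p of 0.127 in edgeR's quasi-likelihood test, where 0.0243% of genes were called. At an unadjusted p under 0.05, 2 of the 6 genes tested passed, *Pdgfa* and *Mcam*, and 6.21% of all genes. For *Mcam* the ratio was 2.82, 2.39 and 4.42 in WT and 4.84, 3.61 and 5.83 in *ArcSwe* mice, and the ranges overlapped. Its interaction was 0.69 (interval 0.29 to 1.08, adjusted p = 0.324 in edgeR), with 0.20 to 0.29 under other clusterings. Without WT replicate 3 the adjusted p in edgeR fell to 0.0410 for *Pdgfa* (0.44) and 0.00732 for *Mcam* (0.94), where 0.369% of all genes were called. Over all settings the adjusted p in edgeR ran from 0.00144 to 0.857 for *Pdgfa* and from 0.00087 to 0.997 for *Mcam*. Capillary clusters differed in these genes. A cluster of 5279 cells held *Pdgfa* at 60.5 and *Mcam* at 24.6 CPM. The 3 other large ones held 24.5 to 28.4 and 5.65 to 6.64 CPM. The first had 1026, 1136 and 491 cells of WT and 1163, 314 and 1149 of *ArcSwe* mice. A cluster of 5415 cells had 652, 506 and 1198, and 962, 268 and 1829. The part of cluster make-up in the ratios was not tested.

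The same ratio for *Pdgfb* was 1.12, 1.09 and 1.10 in WT and 1.19, 1.13 and 1.23 in *ArcSwe* mice. The groups again did not overlap, as for 11.3% of all genes. The step was small, with an interaction of 0.13 (interval 0.00 to 0.25, adjusted p = 0.806 in edgeR). *Pdgfd* had ratios of 1.48 to 1.71 in WT and 1.61 to 1.81 in *ArcSwe* mice, which overlapped, and an interaction of 0.12 (-0.03 to 0.26). Between venous and capillary cells, *Pdgfa* had 0.34 (0.03 to 0.65, adjusted p = 0.843 in edgeR), where 0.103% of genes were called. *Rgs5* had 0.69 (0.20 to 1.19, adjusted p = 0.633 in edgeR), and these were 2 of 5 tested that passed an unadjusted p under 0.05, against 5.77% of all genes. The venous to capillary ratio of *Pdgfa* was 1.29 to 2.33 in WT and 2.37 to 2.95 in *ArcSwe* mice, which did not overlap, as for 10.8% of all genes.

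**Figure D4:**
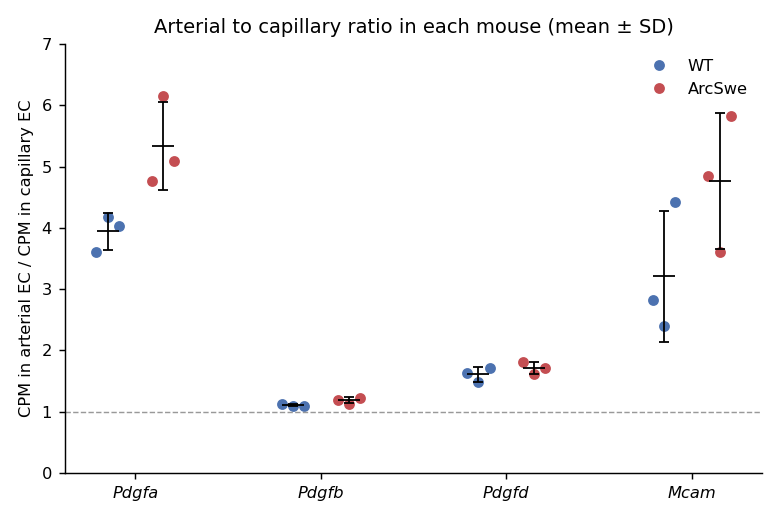
Ratio of the arterial to the capillary level (y axis, CPM over CPM) in each mouse for 4 genes (x axis), with 3 WT mice in blue, 3 *ArcSwe* mice in red, group means and SDs, and a dashed line at 1. The *ArcSwe* mice lie above the WT mice for *Pdgfa* (4.77 to 6.15 against 3.61 to 4.18) and *Pdgfb*, and overlap them for *Pdgfd* and *Mcam*. The groups did not overlap, in either direction, for 11.3% of all genes.

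*Mcam* in arterial cells stood at 40.9, 34.0 and 48.4 CPM in WT and 57.8, 42.6 and 55.7 CPM in *ArcSwe* mice. The ranges overlapped, and the log2 fold change of 0.39 (interval 0.06 to 0.72) had an adjusted p of 0.976 in edgeR. In capillary cells it was -0.24 (-0.63 to 0.15), a sign that turned under other clusterings (0.062 at resolution 0.5 and 0.067 with the 8 genes among the variable genes). *Gm10687*, on the strand opposite to *Mcam* and overlapping it, was also the gene whose class pattern was most like that of *Mcam* (r = 0.991 over 8 classes). Whether the pair shares reads was not tested.

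*Rgs5* in venous endothelial cells was low, at 9.46, 12.0 and 15.6 CPM in WT and 22.2, 17.8 and 49.1 CPM in *ArcSwe* mice. The groups did not overlap, and the log2 fold change was 1.34 (SE 0.35, interval 0.57 to 2.10), and edgeR's quasi-likelihood test gave an adjusted p of 0.999. The level was 0.32% of that in pericytes, and 36 of the 123 UMIs of *ArcSwe* replicate 3 came from 1 cell. The 7 pericyte markers summed to 55.5 CPM in the venous cells of that mouse and 7.57 to 17.7 CPM in the others, with none of the 7 at 0 when the mice were pooled. The marker *Art3* alone stood at 3.43 to 8.78 CPM over the mice. It was at 1% of its pericyte level, and the other markers at 0.0385 to 0.107%. When venous cells holding any pericyte marker UMI were removed, *Rgs5* was 9.3, 6.5 and 14 CPM in WT and 13, 11.1 and 14.2 CPM in *ArcSwe* mice, and the groups overlapped. Cells whose only marker UMI was of *Art3* were removed too, and the part of pericyte transcripts in the *Rgs5* values was not tested. Without *ArcSwe* replicate 3 the log2 fold change was 0.75.

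**Figure D5:**
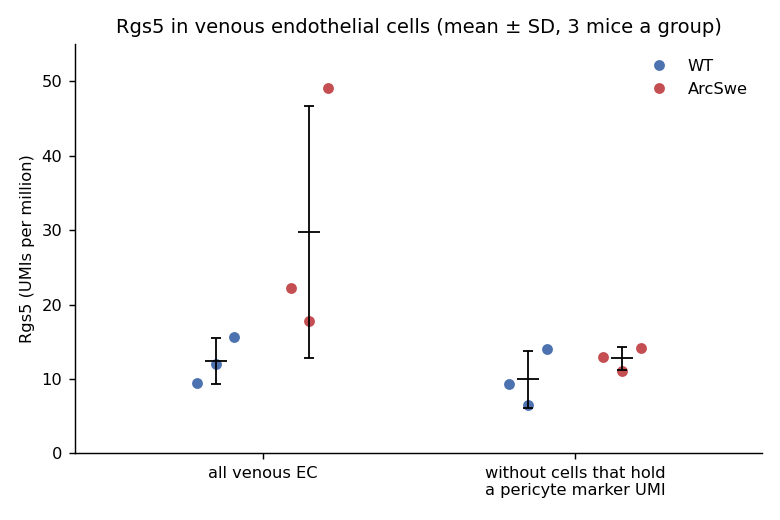
*Rgs5* level (y axis, CPM) in venous endothelial cells of each mouse, over all venous cells and without cells that held a pericyte marker UMI (x axis), with group means and SDs (3 mice a group). Over all cells *ArcSwe* replicate 3 stands at 49.1, and after removal the 2 genotypes overlap between 6.5 and 14.2.

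Lists of pathway genes gave no call in any class, where 0% of all genes were called outside microglia. In capillary cells, 9 of 11 genes that process, retain or assist PDGF were tested, with a median log2 fold change of 0.10 against 0.00 for all genes. Among them *Sparc*, a matrix protein that binds PDGF-B, had 0.21 (743 to 821 CPM in WT, 874 to 890 CPM in *ArcSwe* mice), and *Plat*, the tissue plasminogen activator, had 0.00. *Pdgfrl*, a gene named for its likeness to the receptor, had 1.05 (interval 0.35 to 1.74, adjusted p = 0.989 in edgeR), from 2.37 to 2.80 CPM in WT and 3.93 to 7.40 CPM in *ArcSwe* mice. It was the 1 of the 9 past an unadjusted p under 0.05 (4.24% of all genes), and 3 of the 9 did not overlap between the genotypes (10.5% of all genes). In pericytes 5 of the 11 were tested (median 0.02), with *Lrp1*, a co-receptor of PDGFRβ, at -0.03, and in smooth muscle cells 10 of 11 (median 0.14), with *Lrp1* at -0.28 (interval -0.58 to 0.01).

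The receptors themselves were nearly absent from capillary cells, with means of 1.08 CPM for *Pdgfrb* and 0.602 CPM for *Pdgfra*. In capillary cells 13 of 13 genes that act next to the receptor were tested (median -0.04), of which 2 passed an unadjusted p under 0.05 (4.24% of all genes). These were the adaptor *Nck1*, at -0.35 (-0.54 to -0.15, adjusted p = 0.989 in edgeR), and the kinase *Src*, at 0.43 (0.01 to 0.84, adjusted p = 0.989 in edgeR). Genes of this list, such as the adaptor *Gab1* and the kinase subunit *Pik3r1*, were tested for 11 of 13 members in pericytes (median -0.08) and 13 of 13 in smooth muscle cells (median -0.02). *Pik3r1* had 0.00 in pericytes (252 to 336 CPM in WT, 264 to 337 CPM in *ArcSwe* mice) and *Gab1* -0.33 (-1 to 0.34). Phosphatases and ligases that end receptor signalling were tested for 4 of 7 and 7 of 7 (medians -0.21 and 0.15), with the ubiquitin ligase *Cbl* at -0.34 (-1.07 to 0.38) and 0.15 (-0.11 to 0.41). All genes had a median of 0.00 in both classes. In pericytes 0 genes of these lists passed an unadjusted p under 0.05 in edgeR's test (3.17% of all genes). In smooth muscle cells 1 of the 7 that end signalling passed it, the phosphatase *Ptpn2* at 0.59 (3.45% of all genes).

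Other genes of mural identity were not called either. In pericytes all 8 pericyte genes were tested (median -0.08), with *Vtn*, which encodes vitronectin, at -0.04 (7770 to 12700 CPM in WT, 7250 to 13600 CPM in *ArcSwe* mice). In smooth muscle cells the 7 contractile genes had a median of 0.04, with *Acta2*, smooth muscle actin, at 0.01 (-0.35 to 0.37). Of the 8 pericyte genes, 6 were tested in smooth muscle cells (median 0.26). Among these, 2 passed an unadjusted p under 0.05 in edgeR's test (3.45% of all genes). The genotypes did not overlap for 1, *Vtn* (9.69% of all genes). *Vtn* in smooth muscle cells had 0.53 (0.19 to 0.88, adjusted p = 1 in edgeR), from 477 to 572 CPM in WT to 639 to 877 CPM in *ArcSwe* mice. *Vtn* is 1 of the 7 pericyte markers whose sum in smooth muscle cells was highest in *ArcSwe* replicate 2.

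The number of pericytes captured per 100 capillary endothelial cells was 1.87, 1.35 and 3.95 in WT and 1.56, 3.28 and 4.89 in *ArcSwe* mice. The groups overlapped, and the means were 2.39 ± 1.38 and 3.25 ± 1.67 (SD, n = 3 each, exact two-sided permutation test, p = 0.6, where 3 mice against 3 allow none below 0.1). The difference of 0.856 was 0.0323 without *ArcSwe* replicate 3. Endothelial cells with a *Cx3cr1* or *Aif1* UMI were left out of the ratio, while pericytes with one were kept. With those endothelial cells kept the difference was 0.645. With mural cells holding *Cldn5*, *Cx3cr1* or *Aif1* removed instead, it was 0.179. The count depends on capture with CD31 beads, so it is not a density in tissue.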

How the data were processed

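The authors deposited raw UMI counts per gene and cell, 1 table per mouse, made with Cell Ranger 7.0.0 against mm10 per the submitters' processing notes, with *Clec7a* and human *NOTCH3* sequences added. Whether introns were counted is not given in the sources used here. Cells with 500 to 4500 genes and under 10% mitochondrial counts were kept and clustered (2000 variable genes without the 8 genes, 30 components, 20 neighbours, leidenalg 0.10.2, resolution 1). A cluster was named from at least 3 markers detected in at least 10% of its cells. Endothelial cells with a *Cx3cr1* or *Aif1* UMI were left out. The scrublet caller marked too few doublets to have worked, so removal by score was added.

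Counts were summed per mouse and class where each mouse had 20 cells, filtered with filterByExpr, scaled with TMM and tested with edgeR 4.0.16 (glmQLFit, glmQLFTest) run in R 4.3.3, and the model held no term besides genotype. Genes of ribosomal proteins, mitochondria, pseudogenes and those with Rik names did not enter the tests. Differences between classes were interactions with the mouse as a block. The test was tried on simulated data, in which many genes per class were changed at once by 1.5, 2 or 4-fold. There it called only a part of the 2-fold changes put in. The share was 25.8% in pericytes, 22.9% in microglia, 69.8% in smooth muscle cells and 64.6 to 79.7% in the endothelial classes. For differences between classes it was 88.7% (arterial against capillary), 73.4% (venous against capillary) and 5.48% (smooth muscle against pericytes). The simulation called 83 to 149 genes per class, more than the data did, so the adjustment was less strict there. How often a lone 2-fold change would be called was not tested. DESeq2 1.42.0 and other settings were alternatives. The named genes were the 8, 2 to 4 examples per list with the highest mean CPM, list genes with an adjusted p under 0.05, and for each of the 8 the 3 genes with the most similar class means. *Ptpn2*, *Pdgfrl*, *Nck1* and *Src* were named after their values were seen. The genes and lists were chosen with earlier results of these data known. Each library is 1 mouse, so the genotype tests set a difference against the spread between mice. Effects of the mouse and of its library cannot be told apart. Positions follow GENCODE vM21.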

Additional observations from a re-analysis of the deposited data

Results flagged for a closer look

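*Pdgfra* was seen outside the classes compared. In a cluster of 55 cells with astrocyte, oligodendrocyte precursor and neuronal markers it stood at 321 CPM, from 69 UMIs, where the highest mean of a tested class was 1.03 CPM. The cells came from every mouse, 2, 8 and 12 from WT and 11, 2 and 20 from *ArcSwe* mice. In an unnamed cluster of 92 cells led by *Ttr*, *Htr2c* and *Ecrg4* it stood at 6.56 CPM, from 5 UMIs. Neither cluster entered a comparison.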

How the results depend on the processing

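Over 808 values of 50 results for single genes, 736 kept their direction and their side of the threshold, 7 passed it only in the alternative and 65, in 22 results, changed sign. Of the 65, 5 had a reported size above 0.2. The cause of these changes was not tested. Some results were left out of these numbers. They were *Pdgfra* and *Pdgfrb* in endothelial results, and *Pdgfrb*, *Rgs5* and *Mcam* in microglia. *Rgs5* and *Mcam* in all endothelial cells together and *Pdgfb* for smooth muscle cells against pericytes were left out too.

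With no filter on low counts, 3 of the 8 genes were called for the arterial against capillary difference (*Pdgfa* 0.43, *Mcam* 0.70, *Rgs5* -0.86), against 0.35% of all genes. In venous cells 1 of the 8 was called (*Rgs5* 1.32, adjusted p = 6.89e-05 in edgeR), against 0.322% of all genes. In microglia 1 of the 8 was called (*Cspg4*), against 1.14% of all genes. Leaving out 1 mouse at a time gave 0 to 2 calls for the arterial against capillary difference and 0 to 2 in microglia, the 2 in each case without WT replicate 3 (*Pdgfa* and *Mcam*, *Pdgfd* at 3.44 and *Cspg4* at 4.69). Without that mouse 7 of the 8 genes were tested in each, and 0.369% and 7.37% of all genes were called. Over all genes, no filter called 142 in arterial, 2 in capillary, 57 in venous cells, 21 in pericytes, 39 in smooth muscle cells, 220 in microglia, and 76, 33 and 8 for the 3 differences between classes, against 3, 12 and 0. DESeq2 called 7 in all endothelial cells and 175 in microglia, and leaving out 1 mouse gave 2 to 831 in microglia, 1 to 46, 7 to 20 and 0 to 2.

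The share of pericytes with a *Pdgfrb* UMI was 88.8% at 2000 UMIs and 91.6% with no thinning. The ligand share in endothelium was 81.9% with cells holding *Cx3cr1* or *Aif1* kept.

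Values of the other sign follow, on the log2 scale. In capillary cells *Mcam* was 0.062 at resolution 0.5 and 0.067 with the 8 genes among the variable genes, *Pdgfb* was -0.0045 with no filter, and *Pdgfd* 0.0032 with stricter cells. In venous cells *Pdgfd* was 0.0081 with the replicate block and 0.009 with cells holding *Cx3cr1* or *Aif1* kept. In arterial cells *Rgs5* was 0.16 with the replicate block, 0.16 and 0.31 at resolutions 0.5 and 2 and 0.092 with the 8 genes among the variable genes. In smooth muscle cells *Pdgfrb* was -0.0067 with no filter, -0.0064 with the replicate block, -0.0033 without scrublet doublets, -0.022 with mixed clusters included and -0.015 without cells holding *Cldn5*, *Cx3cr1* or *Aif1*. In pericytes *Mcam* was -0.052 with the 8 genes among the variable genes and *Pdgfa* -0.029 with stricter cells. For smooth muscle cells against pericytes *Mcam* was 0.012 with RLE factors and 0.051 with the 8 genes among the variable genes. For venous against capillary cells *Pdgfd* was -0.016 with stricter cells and -0.016 without the highest doublet scores.

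Leaving out 1 mouse at a time, *Mcam* ran from -0.13 to 0.10 in pericytes, -0.015 to 0.10 in smooth muscle, -0.10 to 0.38 in venous cells and -0.14 to 0.21 for smooth muscle against pericytes. *Pdgfa* ran from -0.35 to 0.39 in pericytes, -0.02 to 0.26 in smooth muscle, -0.017 to 0.13 in all endothelial cells, -0.0073 to 0.45 in microglia and -0.15 to 0.38 for smooth muscle against pericytes. *Pdgfb* ran from -0.10 to 0.13 in capillary and -0.058 to 0.14 in all endothelial cells. *Pdgfd* ran from -0.047 to 0.31 in arterial, -0.15 to 0.14 in capillary, -0.15 to 0.18 in venous and -0.13 to 0.21 in all endothelial cells, -0.29 to 0.12 in smooth muscle and -0.07 to 0.048 for venous against capillary cells. *Pdgfrb* ran from -0.08 to 0.12 in smooth muscle. *Rgs5* ran from -0.31 to 0.053 in pericytes, -0.69 to 1.00 in arterial cells and -1.31 to 0.29 for arterial against capillary cells.

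The labels do not say that replicate numbers mark a shared batch, and the mice were different animals. Correlations of same-numbered mice ran from -0.069 to 0.393 (12 of 21 over 0.1, against 6 of 42 for other pairs). All 3 same-numbered pairs were over 0.1 in capillary cells (0.104, 0.15 and 0.359), where WT replicate 1 correlated best with *ArcSwe* replicate 2 (0.276), and at least 1 pair was not in each other class. With the replicate block 0 of the tested genes among the 8 were called in any class, and over all genes 0 in all endothelial and in capillary cells, 4 in arterial and 1 in venous cells, 3 in pericytes, 1 in smooth muscle cells and 47 in microglia. No test was run in fibroblasts or fenestrated cells, nor in pericytes at resolutions 0.5 and 2. Doublet scores, mixed clusters, removal of venous cells with pericyte markers and the ligand share without each mouse were chosen after seeing the data. Pericyte sums, of 35 to 205 cells, limit what could be detected there.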

Other observations

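*Cspg4* was nearly absent from microglia, with 2, 0 and 2 UMIs in WT and 18, 0 and 29 UMIs in *ArcSwe* mice. Most lay in 1 microglial cluster of 512 cells and 43 UMIs, led by *Cst7*, *Ifnb1*, *Cxcl10*, *Clec7a* and *Spp1*, with 16 UMIs in 122 cells of *ArcSwe* replicate 1 and 26 in 358 cells of replicate 3. The 6 cells of *ArcSwe* replicate 2 in it held 0, and its 4, 2 and 20 WT cells held 0, 0 and 1. The gene did not pass the filter on low counts. With no filter its log2 fold change was 3.92 (adjusted p = 0.00794 in edgeR), where 1.14% of all genes were called.

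Smooth muscle cells were not uniform. A cluster of 135 cells, 56 of them from WT replicate 3 and 40 from *ArcSwe* replicate 3, held *Pdgfd* at 567 CPM, *Mcam* at 975 CPM and *Rgs5* at 84.8 CPM. The main smooth muscle cluster of 3135 cells held 152, 609 and 1530 CPM. The median cell of the small cluster held 1678 UMIs and that of the main cluster 5131 UMIs.

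Over 8 classes and 12322 genes, the class pattern most like that of *Pdgfb* was that of *Bsdc1* (r = 0.992), followed by *Tal1* (0.989) and *Fem1c* (0.986). *Pdgfd* was nearest to *Smim10l1* (0.986), *Pdgfa* to *Glt8d1* (0.978), *Pdgfrb* to *Omd* (0.996), *Cspg4* to *Sntb1* (0.999), *Rgs5* to *Ndufa4l2* (0.994) and *Pdgfra* to *Cnksr2* (0.999). These are correlations of class means within the same libraries.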
